A study of Rattus norvegicus with 12 samples.

Results

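Chemokines and their receptors were followed in sciatic nerve stumps of rats. Chemokines are small secreted proteins that bind to the matrix around the cells that make them and draw in leukocytes carrying the matching receptor. A receptor of this family is a membrane protein coupled to an inhibitory G protein, and each class of leukocyte carries its own set. After nerve injury, Schwann cells, fibroblasts and macrophages of the nerve release chemokines, and neutrophils and then monocytes enter and clear myelin debris. Some members also act on sensory neurons and are known as mediators of pain. The members were all genes whose deposited name was that of a numbered CC, CXC, CX3C or XC chemokine or of a numbered chemokine receptor, atypical receptors included. The rule found 55 genes of 30562 in the table, 34 ligands and 21 receptors. Of these, 51 passed a filter on low counts and were tested, 30 ligands and all 21 receptors.

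The 12 stumps formed 4 groups of 3. Stumps labelled VP4:2 were held in a truncated cone conduit labelled 4:2 and loaded with verteporfin, which interferes with binding between the coactivator YAP and TEAD transcription factors. Stumps labelled CC4:2 were in a 4:2 conduit with no compound named, and those labelled CC4:4 in a conduit of another gradient, 4:4. The remaining 3 stumps were labelled Control. The design text ties the conduits to pain relief. The labels gave no strain, sex, age, surgery, time or dose, no account of what controls received, and nothing on which stumps shared an animal. The p-values thus reflect only how far these samples spread, part of which may be technical. Poly(A) RNA was read in pairs of 150 bases. A NovaSeq X Plus read the 8 libraries of replicates 1 and 2, and a DNBSEQ-T7 read the 4 libraries of replicate 3.

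Totals ran from 13763106 to 18632301 counts per sample. Members took 0.187% to 0.254% of the counts in VP4:2, 0.0855% to 0.133% in CC4:2, 0.258% to 0.286% in CC4:4 and 0.245% to 0.306% in Control. All 7 Schwann cell markers were present in every group, with a summed level of 12500 to 18300 CPM (counts scaled to TMM-adjusted library sizes) in VP4:2, 13600 to 35300 CPM in CC4:2, 2660 to 3360 CPM in CC4:4 and 457 to 4570 CPM in Control. The lowest of the controls was replicate 1, which also stood apart on the second principal component of all genes (84.9 against -34.1 and -55.9 for the other controls). Summed skeletal muscle markers differed between libraries of a group, for example 3.43, 604 and 6040 CPM in Control. Levels below are CPM in replicates 1, 2 and 3, in that order, which is not a sequence. They are not per length, so levels of different genes are not compared. Changes are log2 fold changes of the first group named over the second, ± SE, with an edgeR quasi-likelihood test on 3 samples a group and a p adjusted over all 15712 genes tested. A gene was called where that adjusted p was under 0.05. Where a call was lost when a library was left out, the adjusted p without that library follows its replicate number in parentheses. Losses under other alternatives are not all listed beside each gene.

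Stumps in the 4:2 conduit held far less RNA of most inflammatory chemokines and leukocyte chemokine receptors than control stumps, while no member was called between stumps in the 4:4 conduit and controls. With verteporfin in the 4:2 conduit, the attractants Ccl2, Ccl7 and Ccl12 and the monocyte receptor Ccr2 were higher than in the plain 4:2 conduit. The neutrophil attractants Cxcl1, Cxcl2, Cxcl3 and Cxcl6 were far below Control in both. Of these, Cxcl6 and Cxcl3 were also called higher with verteporfin than in the plain 4:2 conduit. The Cxcl3 call was kept in 6 of 15 alternatives. Ccl7 was in turn called lower with verteporfin than in Control, a call kept in 9 of 16 alternatives. In CC4:2 against Control, 29 of 51 tested members were lower, where 23.1% of all genes tested were, and 2 were higher, where 20.2% of all genes were (31 members and 43.2% of genes in either direction). In CC4:2 against CC4:4, 32 were lower (20.6% of all genes) and 2 were higher (18.3% of all genes), together 34 members and 38.9% of genes. In VP4:2 against CC4:2, 17 were higher (5.29% of all genes) and 1 was lower (1.04% of all genes), together 18 members and 6.33% of genes. With the replicate number as a block in the fit, 15 were higher and 0 lower there. In VP4:2 against Control, 17 were lower (9.42% of all genes) and 2, Ccr2 and Cxcl14, were higher (9.25% of all genes), together 19 members and 18.7% of genes. In CC4:4 against Control, 0 members were called, and 0% of all genes. These comparisons share groups, so they are not independent of each other.

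The median log2 fold change of the tested members was 1.08 in VP4:2 against CC4:2, -2.04 in CC4:2 against Control, -1.97 in CC4:2 against CC4:4, -0.87 in VP4:2 against Control and -0.13 in CC4:4 against Control. Over all genes tested these medians were -0.03, -0.05, 0.01, -0.04 and -0.01. A gene that is high in only 1 group passes the filter through that group, so these counts and medians describe the tested members and support nothing by themselves. Of the tested members, 8 had fewer than 10 counts in every CC4:2 sample, among them all 4 neutrophil attractants. The samples were whole stumps, so fewer cells of a type and less RNA per cell cannot be told apart. Scaling by total counts in place of TMM moved the median of all genes up by 0.2 in CC4:2 against Control, 0.21 in CC4:2 against CC4:4 and 0.24 in VP4:2 against Control. The share of called genes that were higher then became 63.1%, 65.5% and 75.7%, against 46.7%, 47.1% and 49.5% with TMM. The members called lower with total count scaling were 27, 29 and 15 in these comparisons, against 29, 32 and 17 with TMM. The heat map of tested members shows each gene in each library around its own mean.

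**Figure D1:**
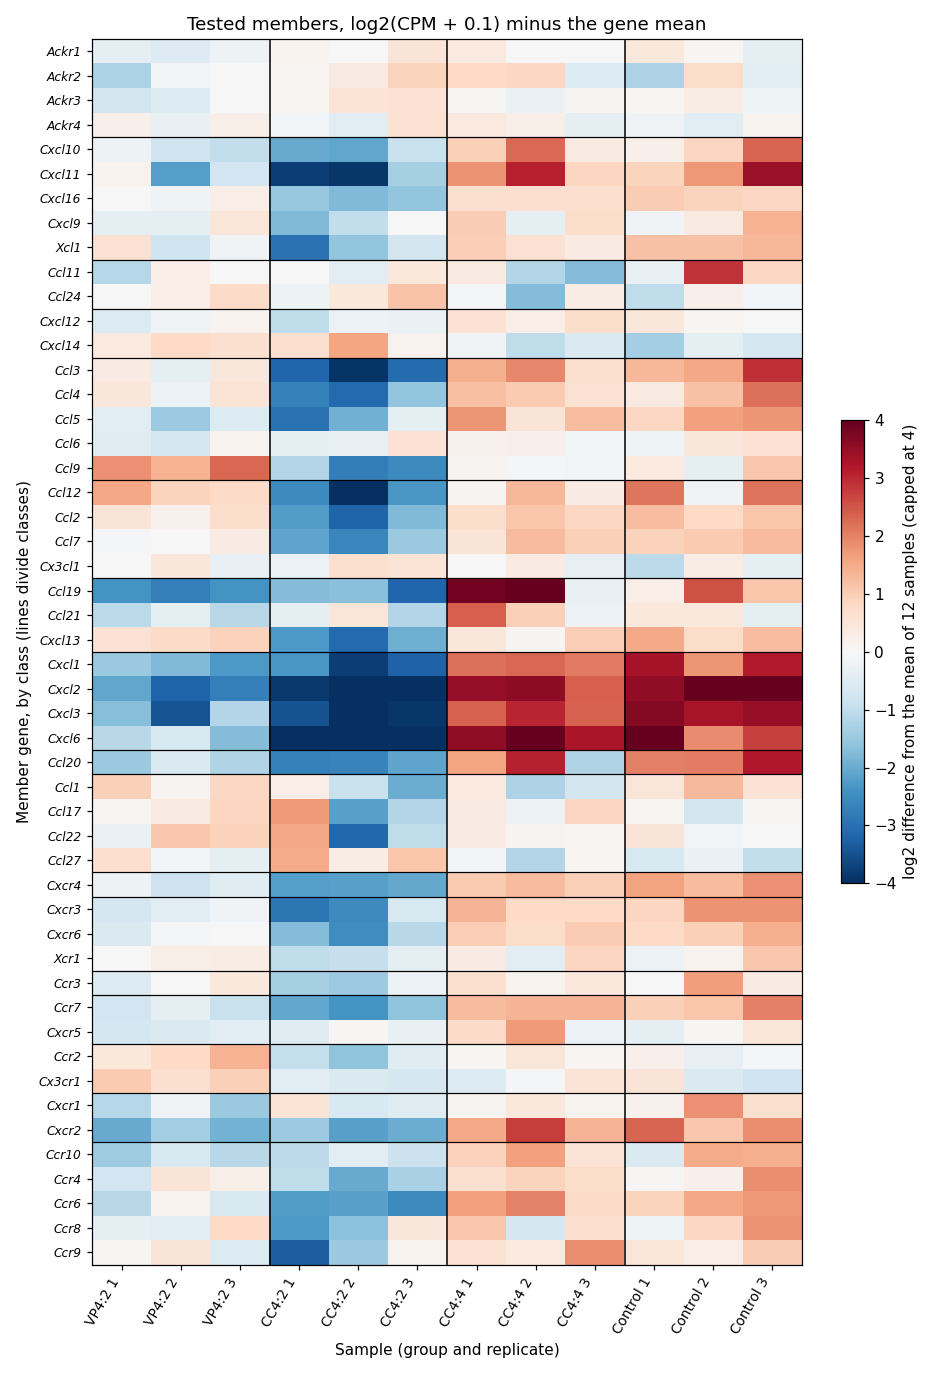
Heat map of 50 tested members (rows, with lines between classes) in 12 samples (columns), as log2(CPM + 0.1) minus the gene's mean over the samples, capped at 4. The neutrophil attractants Cxcl1, Cxcl2, Cxcl3 and Cxcl6 are low in all VP4:2 and CC4:2 samples and high in all CC4:4 and Control samples, while Ccl9 and Cx3cr1 are higher in all VP4:2 samples than in any other.

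Neutrophils are drawn by CXC chemokines that share a receptor, Cxcr2, and these 4 ligands had the lowest log2 fold changes of all tested members in CC4:2 against Control. Their genes are known targets of NF-kappaB, the transcription factor that interleukin 1 and tumour necrosis factor switch on. RefSeq promoters (build GRCr8) were at hand for 41 of the 55 members, matched by symbol. In the 250 bases before the start, the letters GGG, any 3 bases and TTCC, a spelling that NF-kappaB sites often have, were found on either strand in 10 of the 41 (24.4%), against 4.53% of all 33469 promoters in the table. Of 20 promoters of members lower in CC4:2 than in Control, 9 held a match, and of 15 of members not called there, 1 did. Whether matches and calls go together was not tested, and a match is a description of letters and not of a bound site. Cxcl3, Ccl2 and Ccl12 either held no match or had no promoter at hand. The 120 bases before the start are shown for 3 neutrophil attractants, for the monocyte attractant Ccl7, and for Cxcl14, a member that was higher in CC4:2 and held no match. The lower members shown were picked from those with a match and do not stand for the other lower members. Capitals mark matches on either strand, and overlapping matches run together.
Cxcl1: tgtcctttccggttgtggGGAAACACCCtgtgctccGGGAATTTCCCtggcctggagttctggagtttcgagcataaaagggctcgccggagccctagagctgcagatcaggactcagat
Cxcl2: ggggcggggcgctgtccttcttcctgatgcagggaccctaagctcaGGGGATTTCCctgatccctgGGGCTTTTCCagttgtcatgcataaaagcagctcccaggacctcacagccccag
Cxcl6: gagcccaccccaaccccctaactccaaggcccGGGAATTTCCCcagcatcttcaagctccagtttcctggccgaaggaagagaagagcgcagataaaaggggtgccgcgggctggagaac
Ccl7: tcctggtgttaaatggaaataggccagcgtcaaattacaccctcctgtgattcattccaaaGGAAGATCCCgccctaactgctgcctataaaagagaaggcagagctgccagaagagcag
Cxcl14: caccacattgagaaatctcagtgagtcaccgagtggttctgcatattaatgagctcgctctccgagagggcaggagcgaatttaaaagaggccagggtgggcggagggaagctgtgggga
These stretches lie at chr14:17479322-17479441 on the minus strand for Cxcl1, chr14:17467256-17467375 on the minus strand for Cxcl2, chr14:17596418-17596537 on the minus strand for Cxcl6, chr10:67513975-67514094 on the plus strand for Ccl7 and chr17:8323030-8323149 on the plus strand for Cxcl14. The overlapping pair began 84 bases before the start in Cxcl1 and 88 bases before it in Cxcl6, and Cxcl2 held matches that began 74 and 54 bases before its start.

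Cxcl2 (ENSRNOG00000002792), a neutrophil attractant made early by activated macrophages, had 1.15, 0.483 and 0.703 CPM in VP4:2 and 0.265, 0.0564 and 0.0522 CPM in CC4:2. It had 61.2, 63.6 and 28 CPM in CC4:4 and 61.9, 87.8 and 172 CPM in Control. Every VP4:2 and CC4:2 sample lay below every CC4:4 and Control sample. Cxcl2 was lower in CC4:2 than in Control (-9.65 ± 0.71, adjusted p = 1.6e-05) and than in CC4:4 (-8.58 ± 0.69, adjusted p = 4.1e-05), and lower in VP4:2 than in Control (-7.09 ± 0.59, adjusted p = 0.00076). VP4:2 did not overlap CC4:2, but the difference of 2.56 ± 0.81 was not called (adjusted p = 0.097); DESeq2 called it (adjusted p = 0.0065).

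Cxcl6 (ENSRNOG00000002843), another ligand of this receptor, had 7.13, 10 and 4.65 CPM in VP4:2 and 0.371, 0.169 and 0.261 CPM in CC4:2. It had 185, 323 and 151 CPM in CC4:4 and 254, 58.6 and 105 CPM in Control. The 3 groups other than Control did not overlap each other, with VP4:2 between CC4:2 and CC4:4. Control replicate 1 lay within the range of CC4:4, and Control replicates 2 and 3 lay below it. The gene rose in VP4:2 over CC4:2 (4.72 ± 0.71, adjusted p = 0.0033) and was lower in VP4:2 than in Control (-4.26 ± 0.57, adjusted p = 0.0026). The rise was not called by limma-voom (adjusted p = 0.14) or in the NovaSeq samples alone (adjusted p = 0.074). In CC4:2 it was lower than in Control (-8.98 ± 0.76, adjusted p = 3.8e-05).

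Cxcl1 (ENSRNOG00000002802) had 0.932, 0.752 and 0.487 CPM in VP4:2 and 0.476, 0.113 and 0.209 CPM in CC4:2. In the other groups it had 13.2, 14.2 and 12 CPM in CC4:4 and 29.1, 9.76 and 26 CPM in Control. Cxcl1 was lower in CC4:2 than in Control (-6.3 ± 0.54, adjusted p = 2.9e-05) and lower in VP4:2 than in Control (-4.89 ± 0.49, adjusted p = 0.00076). Between VP4:2 and CC4:2 it was not called (1.41 ± 0.56, adjusted p = 0.17). The samples did not overlap in CPM, but the nearest, VP4:2 replicate 3 and CC4:2 replicate 1, had 9 counts each. Cxcl3 (ENSRNOG00000028043) had 30 counts over the VP4:2 samples, 3 over CC4:2, 643 over CC4:4 and 1115 over Control. Its level was 0.603, 0.107 and 0.92 CPM in VP4:2 and 0.106, 0 and 0.0522 CPM in CC4:2. It was 11.7, 18.7 and 11.5 CPM in CC4:4 and 28.9, 22.3 and 25.5 CPM in Control. With so few counts in CC4:2 the ratios are given with a 95% exact interval for counting error alone. CC4:2 was 482-fold (165 to 2340) lower than Control and 258-fold (87.7 to 1250) lower than CC4:4, both called (adjusted p = 2.1e-05 and 5e-05). VP4:2 stood 10.1 times (3.13 to 51.6) above CC4:2 (adjusted p = 0.043), a call that was lost with the replicate block (adjusted p = 0.084) and when VP4:2 replicate 1 (0.12) or 3 (0.18) or CC4:2 replicate 1 (0.072), 2 (0.14) or 3 (0.11) was left out. This call was also lost with limma-voom (adjusted p = 0.2), in the NovaSeq samples alone (adjusted p = 0.42) and with platform as a covariate (adjusted p = 0.062).

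The receptor Cxcr2 (ENSRNOG00000063618), which neutrophils carry, had 3.23, 5 and 3.57 CPM in VP4:2 and 4.87, 2.93 and 3.34 CPM in CC4:2. It had 38.3, 90.9 and 34.7 CPM in CC4:4 and 68, 28.4 and 48.5 CPM in Control. VP4:2 and CC4:2 overlapped, and both lay below all other samples. Cxcr2 was lower in CC4:2 than in Control (-3.7 ± 0.45, adjusted p = 0.00019) and in VP4:2 than in Control (-3.62 ± 0.45, adjusted p = 0.0018), and its difference between VP4:2 and CC4:2 was not called (0.08 ± 0.43, adjusted p = 0.94). The other receptor for some of these ligands, Cxcr1, had 2 to 25 counts per sample and was called in VP4:2 against Control alone among the 5 comparisons (-2.19 ± 0.68, adjusted p = 0.045), a call that was lost without any 1 of VP4:2 replicates 1, 2 and 3 or Control replicates 2 and 3. In the NovaSeq samples alone, Cxcl1, Cxcl6 and Cxcr2 were not called in VP4:2 against Control (adjusted p = 0.065, adjusted p = 0.086 and adjusted p = 0.074 in that order), while Cxcl2 and Cxcl3 were.

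Neutrophil markers moved with these genes. All 8 markers (Cxcr2 is among them) were lower in CC4:2 than in Control (23.1% of all genes tested). In VP4:2, 7 of 8 were lower than in Control (9.42% of all genes). Their summed level was 167 to 463 CPM in VP4:2, 49.2 to 68.9 CPM in CC4:2, 664 to 1170 CPM in CC4:4 and 1020 to 1080 CPM in Control, and none was at 0 in any group. In VP4:2 most of that sum was Mmp9 (79.2, 187 and 376 CPM) and Ncf1 (69.5, 51.3 and 67.9 CPM). Of the 8 markers, 2 were higher in VP4:2 than in CC4:2 (5.29% of all genes). These were the gelatinase gene Mmp9 (3.34 ± 0.69, adjusted p = 0.019) and the phagocyte oxidase gene Ncf1 (1.35 ± 0.31, adjusted p = 0.026), both of which macrophages also express. The neutrophil calprotectin gene S100a9 was at 3.82 ± 1.41 CPM in VP4:2 and 2.89 ± 1.06 CPM in CC4:2 (SD, n = 3 each; adjusted p = 0.67). The part of neutrophil number in the ligand differences was not tested.

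**Figure D2:**
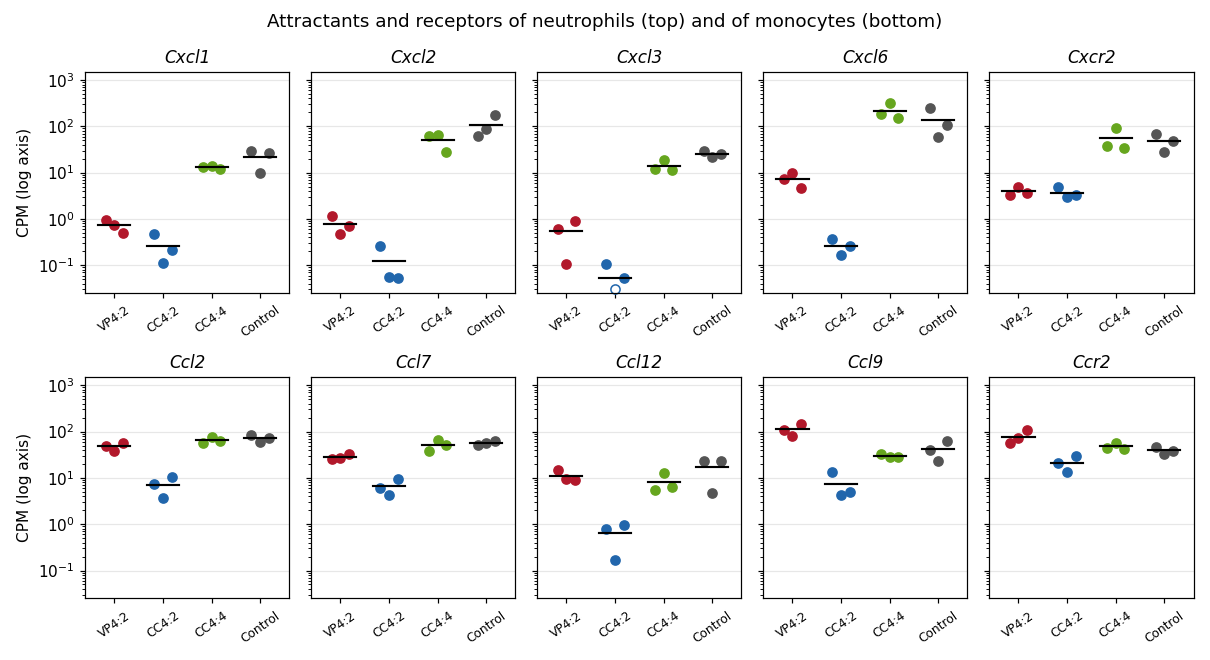
Level of 10 members in each sample (points; CPM, log axis) by group, with the group mean as a line; the open point marks 0 CPM. In the upper row the VP4:2 and CC4:2 samples lie below all CC4:4 and Control samples, and in the lower row all CC4:2 samples lie below every other sample. VP4:2 lies below Control for Ccl2 and Ccl7, overlaps it for Ccl12 and lies above it for Ccl9 and Ccr2.

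Monocytes enter through Ccr2, whose main ligands in rodents are Ccl2, Ccl7 and Ccl12. Ccl2 (ENSRNOG00000007159), the principal monocyte attractant and a known pain mediator, had 49.8, 38.8 and 56.1 CPM in VP4:2 and 7.36, 3.72 and 10.2 CPM in CC4:2. It had 57.1, 75.1 and 61.8 CPM in CC4:4 and 82.6, 60.2 and 74.2 CPM in Control. All CC4:2 samples lay below all others, and VP4:2 lay just below Control without overlap. Ccl2 fell in CC4:2 relative to Control (-3.35 ± 0.32, adjusted p = 4.5e-05) and was higher in VP4:2 than in CC4:2 (2.76 ± 0.31, adjusted p = 0.00047). Against Control, VP4:2 was at -0.59 ± 0.29, adjusted p = 0.18, which was not called.

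Ccl7 (ENSRNOG00000000239) had 25.3, 27 and 33.3 CPM in VP4:2 and 6.19, 4.29 and 9.5 CPM in CC4:2. It had 38.1, 65 and 52.2 CPM in CC4:4 and 50.5, 55.5 and 64 CPM in Control. Ccl7 was higher in VP4:2 than in CC4:2 (2.1 ± 0.28, adjusted p = 0.0013) and lower in CC4:2 than in Control (-3.09 ± 0.29, adjusted p = 4.1e-05). Its call in VP4:2 against Control (-0.99 ± 0.27, adjusted p = 0.028) was lost when VP4:2 replicate 1 (0.1), 2 (0.094) or 3 (0.05) or Control replicate 2 (0.059) or 3 (0.099) was left out, with total count scaling (adjusted p = 0.065) and in the NovaSeq samples alone (adjusted p = 0.14). Ccl12 (ENSRNOG00000029768) had 15.1, 9.56 and 8.82 CPM in VP4:2 and 0.794, 0.169 and 0.94 CPM in CC4:2. It had 5.46, 13 and 6.43 CPM in CC4:4 and 22.6, 4.61 and 23.3 CPM in Control. The CC4:2 samples were again below all others (VP4:2 against CC4:2, 4.11 ± 0.72, adjusted p = 0.0066; CC4:2 against Control, -4.71 ± 0.73, adjusted p = 0.00067), and VP4:2 overlapped Control (-0.6 ± 0.6, adjusted p = 0.51). The rise in VP4:2 was not called by limma-voom (adjusted p = 0.071) or in the NovaSeq samples alone (adjusted p = 0.11). The membrane-bound ligand Cx3cl1 was not called in any of the 5 comparisons and ran from 4.84 to 16.0 CPM over all samples.

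A further set of CC ligands draws monocytes and effector T cells. Ccl9 (ENSRNOG00000028548), a ligand of Ccr1 in mouse, had 107, 78.4 and 149 CPM in VP4:2 and 13.2, 4.29 and 5.01 CPM in CC4:2. It had 32.5, 28.1 and 28 CPM in CC4:4 and 39.1, 22.9 and 62.9 CPM in Control. All VP4:2 samples lay above every other sample and all CC4:2 samples below. Counts of Ccl9 were not whole in 6 samples, so part of its reads may have been divided between features. Ccl9 was higher in VP4:2 than in CC4:2 (3.89 ± 0.5, adjusted p = 0.0013) and lower in CC4:2 than in Control (-2.47 ± 0.47, adjusted p = 0.0023). Against Control, VP4:2 was at 1.42 ± 0.45, adjusted p = 0.051, just short of a call, and it was called by DESeq2 (adjusted p = 0.0083), by limma-voom (adjusted p = 0.021), with the replicate block (adjusted p = 0.036), with total count scaling (adjusted p = 0.027) and without Control replicate 3 (adjusted p = 0.045).

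Ccl3 (ENSRNOG00000011205), which macrophages release on activation, had 19.3, 11.5 and 21 CPM in VP4:2 and 1.59, 0.902 and 1.72 CPM in CC4:2. It had 40.7, 57.9 and 23.6 CPM in CC4:4 and 38.7, 44.7 and 117 CPM in Control. Ccl3 rose in VP4:2 over CC4:2 (3.61 ± 0.53, adjusted p = 0.0026) and was lower in CC4:2 than in Control (-5.56 ± 0.57, adjusted p = 8.2e-05). VP4:2 was lower than Control (-1.95 ± 0.47, adjusted p = 0.019), a call lost when VP4:2 replicate 1 (0.058) or 2 (0.074) or Control replicate 3 (0.07) was left out. Ccl4 (ENSRNOG00000011406), which activated macrophages also release, had 11, 6.82 and 11.7 CPM in VP4:2 and 1.16, 0.846 and 2.61 CPM in CC4:2. It had 18.7, 16.7 and 12.4 CPM in CC4:4 and 10.4, 18 and 37.2 CPM in Control. Ccl4 was higher in VP4:2 than in CC4:2 (2.66 ± 0.52, adjusted p = 0.011), not called when CC4:2 replicate 1 (0.054) or 2 (0.056) was left out or by limma-voom (adjusted p = 0.053). In CC4:2 it was lower than in Control (-3.81 ± 0.53, adjusted p = 0.00037). VP4:2 overlapped Control without a call (-1.15 ± 0.47, adjusted p = 0.11), and was called lower without Control replicate 1 (adjusted p = 0.029).

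Ccl5 (ENSRNOG00000010906), made largely by T and NK cells, was not called between VP4:2 and CC4:2 (0.61 ± 0.6, adjusted p = 0.59). It had 9.15, 4.51 and 8.44 CPM in VP4:2 and 1.48, 3.21 and 9.71 CPM in CC4:2, which overlapped. It had 42.2, 17.9 and 29.6 CPM in CC4:4 and 22, 39.1 and 42.2 CPM in Control. Ccl5 was lower in CC4:2 than in Control (-2.84 ± 0.62, adjusted p = 0.0048) and lower in VP4:2 than in Control (-2.22 ± 0.6, adjusted p = 0.031), the second lost when VP4:2 replicate 1 (0.077), 2 (0.11) or 3 (0.078) or Control replicate 2 (0.07) or 3 (0.098) was left out. Ccl6 (ENSRNOG00000030021), which rodent macrophages express steadily, was not called in any of the 5 comparisons. It had 32.7, 28.4 and 50 CPM in VP4:2 and 35.5, 36.5 and 69 CPM in CC4:2. It had 51.6, 52.4 and 42 CPM in CC4:4 and 40.7, 63.1 and 68.7 CPM in Control, and all groups overlapped.

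Among the receptors of these cells, Ccr2 (ENSRNOG00000063127) had 55.4, 71.3 and 108 CPM in VP4:2 and 21.1, 13.4 and 29.2 CPM in CC4:2. It had 43.4, 57.3 and 42.5 CPM in CC4:4 and 47.2, 32.8 and 38.6 CPM in Control. Ccr2 was higher in VP4:2 than in CC4:2 (1.88 ± 0.31, adjusted p = 0.0041) and than in Control (0.98 ± 0.3, adjusted p = 0.043), and all VP4:2 samples lay above all Control samples. The call against Control was lost with the replicate block (adjusted p = 0.062), with only the groups compared (adjusted p = 0.069), in the NovaSeq samples alone (adjusted p = 0.26) and when VP4:2 replicate 2 (0.087) or 3 (0.16) or Control replicate 2 (0.11) or 3 (0.11) was left out. The fall in CC4:2 against Control (-0.9 ± 0.3, adjusted p = 0.033) was lost when CC4:2 replicate 1 (0.077) or 2 (0.1) or Control replicate 1 (0.09) or 3 (0.071) was left out. That fall was also not called with only the groups compared (adjusted p = 0.064) or with total count scaling (adjusted p = 0.1). Counts of Ccr2 were not whole in 4 samples, so part of its reads may have been divided between features by the authors' counting.

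Cx3cr1 (ENSRNOG00000018509), the fractalkine receptor of monocytes and resident macrophages, had 68.1, 51 and 64.4 CPM in VP4:2 and 24.2, 21.9 and 20.6 CPM in CC4:2. It had 22.5, 31.2 and 47.7 CPM in CC4:4 and 46.8, 22 and 19.1 CPM in Control. It was not called in CC4:2 against Control (-0.4 ± 0.34, adjusted p = 0.36). Cx3cr1 was higher in VP4:2 than in CC4:2 (1.46 ± 0.34, adjusted p = 0.03), but not with the replicate block (adjusted p = 0.051) or when VP4:2 replicate 1 (0.098) or 3 (0.1) or CC4:2 replicate 1 (0.075), 2 (0.11) or 3 (0.086) was left out. Its difference between VP4:2 and Control was 1.06 ± 0.34, adjusted p = 0.051, and it was called higher by DESeq2 (adjusted p = 0.013) and limma-voom (adjusted p = 0.038), with RLE and total count scaling, and without Control replicate 1, the highest control (adjusted p = 0.0033).

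Most macrophage markers moved in the same direction, though Cd163 overlapped between VP4:2 (61.4, 127 and 85 CPM) and CC4:2 (72.5, 114 and 132 CPM). Of 10 monocyte and macrophage markers, 6 were higher in VP4:2 than in CC4:2 (5.29% of all genes tested). In CC4:2, 7 were lower than in Control (23.1% of all genes). In VP4:2 against Control 1 was lower (9.42% of all genes) and 9 were not called. Their summed level was 4080 to 6310 CPM in VP4:2, 1600 to 2060 CPM in CC4:2, 4850 to 5620 CPM in CC4:4 and 5350 to 11700 CPM in Control. Lyz2 was the largest part of that sum in every sample, for example 3190, 8950 and 4970 CPM in Control. None of the 10 markers was at 0 in any group. Their part in the ligand and receptor differences was not tested. The plot of fitted changes sets the members of these classes side by side.

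**Figure D3:**
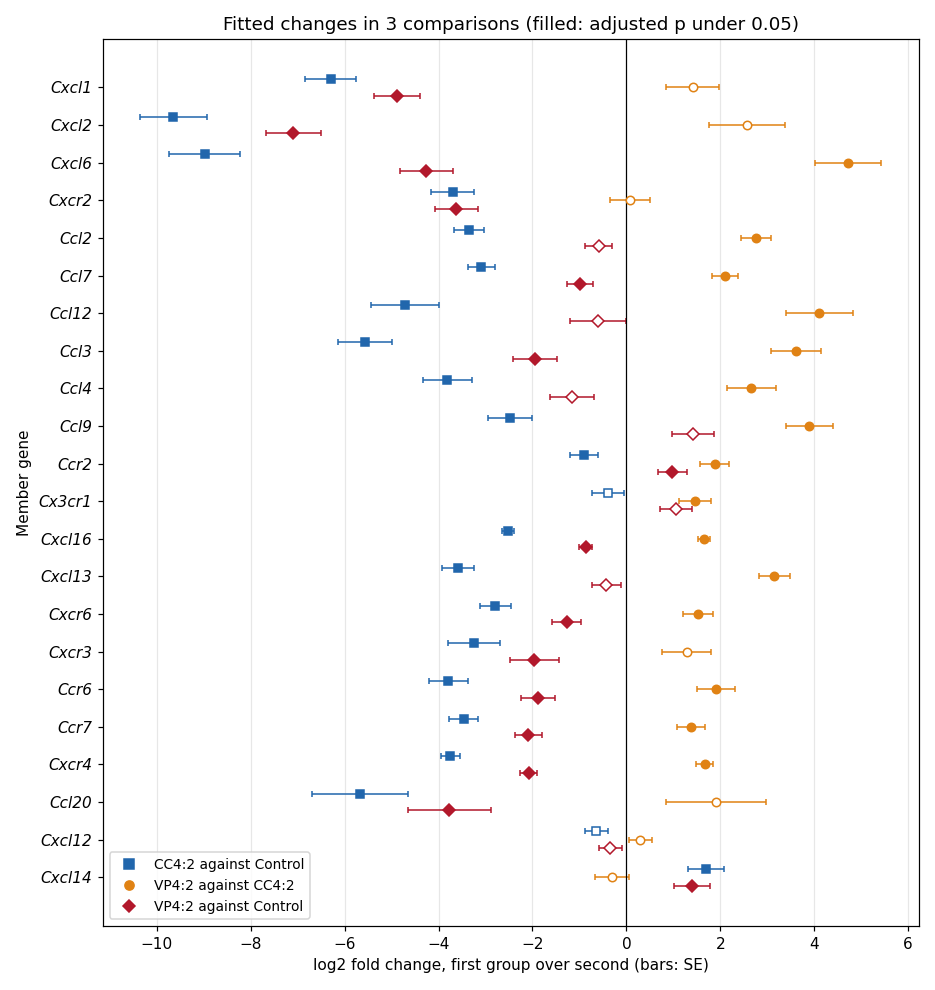
Fitted log2 fold changes (points) with SE (bars) of 22 members in VP4:2 against CC4:2, CC4:2 against Control and VP4:2 against Control, 3 samples a group; filled points had an adjusted p under 0.05. In VP4:2 against Control the neutrophil attractants and Cxcr2 lie between -7.09 and -3.62. In that comparison Ccl2 (-0.59), Ccl12 (-0.60) and Cxcl13 (-0.43) lie near 0, and Ccl9 (1.42, not called) and Ccr2 (0.98) above it. Ccl7, Ccl3, Cxcl16, Cxcr3, Cxcr6, Ccr6, Ccr7, Cxcr4 and Ccl20 are also called lower there.

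Effector T cells and NK cells are drawn by the interferon-induced ligands Cxcl9, Cxcl10 and Cxcl11 through Cxcr3 and by Cxcl16 through Cxcr6. Cxcl16 (ENSRNOG00000026647), a ligand that is also a membrane scavenger protein of macrophages, had 108, 95.7 and 128 CPM in VP4:2 and 37.5, 31.7 and 36.2 CPM in CC4:2. It had 168, 172 and 169 CPM in CC4:4 and 215, 199 and 192 CPM in Control. The 4 groups did not overlap. Cxcl16 was higher in VP4:2 than in CC4:2 (1.65 ± 0.13, adjusted p = 8.1e-05), lower in CC4:2 than in Control (-2.52 ± 0.13, adjusted p = 4e-06) and lower in VP4:2 than in Control (-0.87 ± 0.13, adjusted p = 0.003). In the NovaSeq samples alone it was not called in VP4:2 against Control (adjusted p = 0.074). Its counts were not whole in any of the 12 samples, so part of its reads may have been divided between features in the same way.

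Cxcl10 (ENSRNOG00000022256) had 17.9, 11.8 and 10.5 CPM in VP4:2 and 5.08, 4.79 and 11 CPM in CC4:2. It had 40.4, 99.5 and 26.6 CPM in CC4:4 and 24, 37.9 and 104 CPM in Control. Cxcl10 was lower in CC4:2 than in Control (-2.98 ± 0.67, adjusted p = 0.0058) and not called between VP4:2 and CC4:2 (0.94 ± 0.64, adjusted p = 0.42), where the samples overlapped. Cxcl11 (ENSRNOG00000022298) had 6.19, 1.13 and 3.25 CPM in VP4:2 and 0.318, 0.282 and 2.19 CPM in CC4:2. It had 19.8, 49.8 and 10.3 CPM in CC4:4 and 10.6, 18.8 and 62.4 CPM in Control. It fell in CC4:2 relative to Control (-5.01 ± 1.12, adjusted p = 0.0061) and was not called in VP4:2 against CC4:2 (1.9 ± 1.06, adjusted p = 0.33). Neither Cxcl10 nor Cxcl11 was called in VP4:2 against Control (-2.04 ± 0.64, adjusted p = 0.051, and -3.11 ± 0.99, adjusted p = 0.056), though both were called lower by DESeq2 and without Control replicate 1 (adjusted p = 0.026 and adjusted p = 0.036). Cxcl9 was not called by edgeR in any of the 5 comparisons, with -1.41 ± 0.55, adjusted p = 0.063 in CC4:2 against Control, and ran from 14.9 to 133 CPM over all samples. It was called lower there by DESeq2 and limma-voom, with platform as a covariate, with the replicate block and without CC4:2 replicate 3 or Control replicate 1. It was also called lower in CC4:2 than in CC4:4 by DESeq2, in the NovaSeq samples alone, with platform as a covariate, with the replicate block and without CC4:2 replicate 3. Xcl1 (ENSRNOG00000002964), a T and NK cell product that draws cross-presenting dendritic cells, had 3.73, 1.34 and 2.16 CPM in VP4:2 and 0.212, 0.733 and 1.41 CPM in CC4:2. It had 4.87, 3.66 and 3.01 CPM in CC4:4 and 5.45, 5.54 and 6.14 CPM in Control, and was lower in CC4:2 than in Control (-2.85 ± 0.56, adjusted p = 0.0023). Between VP4:2 and CC4:2 it was called by DESeq2 (adjusted p = 0.031) and without CC4:2 replicate 3 (adjusted p = 0.047) and not by edgeR with all samples (1.61 ± 0.55, adjusted p = 0.12).

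Their receptors were likewise low in CC4:2. Cxcr3 (ENSRNOG00000003305) had 7.62, 8.86 and 11.2 CPM in VP4:2 and 1.54, 2.03 and 7.78 CPM in CC4:2. It had 31.3, 21.3 and 21.3 CPM in CC4:4 and 22.2, 42.6 and 42.9 CPM in Control. Cxcr3 was lower in CC4:2 than in Control (-3.24 ± 0.55, adjusted p = 0.0011) and not called in VP4:2 against CC4:2 (1.28 ± 0.52, adjusted p = 0.18), where CC4:2 replicate 3 stood inside the range of VP4:2. Without that library it was called (adjusted p = 0.0051). Its call in VP4:2 against Control (-1.96 ± 0.52, adjusted p = 0.026) was lost when VP4:2 replicate 1 (0.097), 2 (0.091) or 3 (0.061) or Control replicate 2 (0.068) or 3 (0.089) was left out. Cxcr6 (ENSRNOG00000006319) had 8.99, 13.1 and 13.7 CPM in VP4:2 and 3.97, 2.31 and 6.11 CPM in CC4:2. It had 26.6, 22.5 and 27.2 CPM in CC4:4 and 23.2, 26.2 and 36.8 CPM in Control. Cxcr6 was higher in VP4:2 than in CC4:2 (1.53 ± 0.32, adjusted p = 0.016), a call lost when VP4:2 replicate 3 (0.068) or CC4:2 replicate 1 (0.057) was left out, and lower in CC4:2 than in Control (-2.79 ± 0.33, adjusted p = 0.00013). Cxcr6 was lower in VP4:2 than in Control (-1.27 ± 0.31, adjusted p = 0.018), lost when VP4:2 replicate 1 (0.074) or 2 (0.054) or Control replicate 3 (0.077) was left out.

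The Xcl1 receptor Xcr1 (ENSRNOG00000006620) marks cross-presenting dendritic cells and had 3.95, 4.67 and 4.92 CPM in VP4:2 and 1.91, 2.03 and 3.08 CPM in CC4:2. It had 4.93, 2.91 and 7.25 CPM in CC4:4 and 3.32, 4.37 and 8.48 CPM in Control. It was called lower in CC4:2 than in Control (-1.2 ± 0.41, adjusted p = 0.036), but not when CC4:2 replicate 1 (0.1) or 2 (0.1) or Control replicate 3 (0.19) was left out. Limma-voom did not call it either (adjusted p = 0.072). The call was also lost with only the groups compared (adjusted p = 0.089), in the NovaSeq samples alone (adjusted p = 0.14) and with total count scaling (adjusted p = 0.078). Of the 9 tested T and NK cell markers, all were lower in CC4:2 than in Control (23.1% of all genes tested). In VP4:2, 4 were higher than in CC4:2 (5.29% of all genes) and 8 were lower than in Control (9.42% of all genes). Their summed level was 77 to 100 CPM in VP4:2, 15.7 to 53.1 CPM in CC4:2, 221 to 345 CPM in CC4:4 and 256 to 398 CPM in Control, with none at 0 in any group. Their part in these differences was not tested.

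Ccr6 is carried by Th17 and B cells, and Ccl20 is its ligand. Ccr6 (ENSRNOG00000012964) had 4.82, 11.5 and 6.76 CPM in VP4:2 and 2.17, 2.26 and 1.72 CPM in CC4:2. It had 32.9, 42.4 and 18.1 CPM in CC4:4 and 19.4, 31.1 and 35.1 CPM in Control. Ccr6 was lower in CC4:2 than in Control (-3.79 ± 0.41, adjusted p = 9.8e-05) and in VP4:2 than in Control (-1.88 ± 0.37, adjusted p = 0.009). Its rise in VP4:2 over CC4:2 (1.91 ± 0.4, adjusted p = 0.016) was lost when VP4:2 replicate 2 (0.052) or CC4:2 replicate 1 (0.054), 2 (0.06) or 3 (0.059) was left out. That rise was also not called by limma-voom (adjusted p = 0.12) or in the NovaSeq samples alone (adjusted p = 0.13). Ccl20 (ENSRNOG00000015992) had 0.384, 0.806 and 0.487 CPM in VP4:2 and 0.106, 0.113 and 0.209 CPM in CC4:2. It had 3.93, 11.3 and 0.479 CPM in CC4:4 and 5.4, 5.47 and 12.4 CPM in Control, and CC4:4 replicate 3 lay inside the range of VP4:2. Ccl20 was lower in CC4:2 than in Control (-5.68 ± 1.02, adjusted p = 0.0015). It was also lower in VP4:2 than in Control (-3.77 ± 0.88, adjusted p = 0.016), a call lost when VP4:2 replicate 1 (0.067), 2 (0.051) or 3 (0.06) or Control replicate 3 (0.058) was left out.

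Th2, regulatory and skin-homing T cells follow Ccl17 and Ccl22 through Ccr4. Ccl22 (ENSRNOG00000016535), a ligand of Ccr4 made by dendritic cells, had 2.69, 6.98 and 6.28 CPM in VP4:2 and 9.79, 0.282 and 1.57 CPM in CC4:2. It had 4.17, 3.52 and 3.42 CPM in CC4:4 and 4.72, 3.05 and 3.31 CPM in Control. In CC4:2 the samples were far apart, with replicate 1 above every other sample, and the gene was not called in any of the 5 comparisons. Ccl17, the other ligand of Ccr4, was not called either and had its highest and lowest values, 7.15 and 0.395 CPM, both in CC4:2. Without CC4:2 replicate 1 both genes were called lower in CC4:2 than in Control and than in CC4:4 (Ccl22, adjusted p = 0.033 and 0.037). Ccl27, a skin-homing ligand with 0.203 to 1.8 CPM, was higher in CC4:2 than in Control (1.87 ± 0.57, adjusted p = 0.021), a call not made without CC4:2 replicate 1, without Control replicate 3 or in the NovaSeq samples alone. Ccl1 was not called in any of the 5 comparisons and stayed under 1 CPM.

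Ccr4, the receptor of Ccl17 and Ccl22, ran from 0.0564 to 0.212 CPM in CC4:2 and from 0.562 to 2.18 CPM in Control and was called lower (-2.89 ± 0.71, adjusted p = 0.0079), though not in the NovaSeq samples alone. Ccr10 (ENSRNOG00000020275), a receptor of skin-homing T cells and of plasma cells, had 0.713, 1.34 and 0.92 CPM in VP4:2 and 0.953, 1.52 and 1.1 CPM in CC4:2. It had 4.05, 6.71 and 3.08 CPM in CC4:4 and 1.35, 6.01 and 5.82 CPM in Control. CC4:2 overlapped Control through Control replicate 1, and its call as lower in CC4:2 (-1.87 ± 0.54, adjusted p = 0.017) was lost when CC4:2 replicate 1 (0.056) or Control replicate 2 (0.059) or 3 (0.063) was left out. This call was also lost with limma-voom (adjusted p = 0.091), with only the groups compared (adjusted p = 0.059) and in the NovaSeq samples alone (adjusted p = 0.18). VP4:2 was lower than Control (-2.13 ± 0.55, adjusted p = 0.023), lost when VP4:2 replicate 1 (0.087), 2 (0.053) or 3 (0.073) or Control replicate 2 (0.068) or 3 (0.085) was left out. Ccr9 (ENSRNOG00000006311), a receptor of gut-homing T cells, had 2.03, 2.79 and 1.3 CPM in VP4:2 and 0.106, 0.62 and 2.14 CPM in CC4:2. It had 2.99, 2.57 and 7.32 CPM in CC4:4 and 2.76, 2.34 and 4.04 CPM in Control. It was called lower in CC4:2 than in CC4:4 (-2.15 ± 0.76, adjusted p = 0.044), but not when CC4:2 replicate 1 (0.076) or 2 (0.13) or CC4:4 replicate 1 (0.056), 2 (0.057) or 3 (0.17) was left out. Against Control it was not called (-1.66 ± 0.76, adjusted p = 0.099) except by limma-voom, in the NovaSeq samples alone, with platform as a covariate and without CC4:2 replicate 3 (adjusted p = 0.011). Counts of Ccr9 were not whole in any of the 12 samples, so part of its reads may have been divided between features. Ccr8, at up to 1.62 CPM, was not called in any of the 5 comparisons, though without CC4:2 replicate 3 it was lower in CC4:2 than in Control and than in CC4:4.

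Neither tested eosinophil attractant, Ccl11 or Ccl24, was called by edgeR in any of the 5 comparisons, though DESeq2, and edgeR without Control replicate 1, called Ccl11 lower in VP4:2 and in CC4:2 than in Control. Ccl24 (ENSRNOG00000031162), an eotaxin that alternatively activated macrophages make, had 23.3, 28.5 and 40.5 CPM in VP4:2 and 20.8, 31.9 and 52.5 CPM in CC4:2. It had 23.1, 7.05 and 29.2 CPM in CC4:4 and 11.6, 27.5 and 22 CPM in Control, with every pair of groups overlapping. The eotaxin Ccl11 ran from 4.51 to 27.7 CPM in 11 samples and stood at 114 CPM in Control replicate 2, the library that also had the highest level of their receptor. Ccr3 (ENSRNOG00000006736) had 3.18, 4.62 and 6.33 CPM in VP4:2 and 1.8, 1.64 and 3.97 CPM in CC4:2. It had 7.39, 5.22 and 6.36 CPM in CC4:4 and 4.78, 15.1 and 5.98 CPM in Control. Ccr3 was lower in CC4:2 than in Control (-1.79 ± 0.49, adjusted p = 0.012), a call lost when Control replicate 2 (0.062) was left out. Summed eosinophil markers were low, at 2.14 to 11.3 CPM in VP4:2, 1.41 to 8.68 CPM in CC4:2, 2.17 to 6.63 CPM in CC4:4 and 1.37 to 35.4 CPM in Control. The highest sum was again that of Control replicate 2, but 34.4 of its 35.4 CPM came from Alox15, which macrophages also express and which was the 1 of 4 markers tested. In that library Il5ra, the interleukin 5 receptor, stood at 1.02 CPM and the granule protein gene Prg2 at 0. The eosinophil peroxidase gene Epx was at 0 in every CC4:2 and Control sample.

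Lymphocytes and mature dendritic cells are placed in lymphoid tissue by Cxcl13 through Cxcr5 and by Ccl19 and Ccl21 through Ccr7. Cxcl13 (ENSRNOG00000024899), the B cell attractant, had 364, 418 and 464 CPM in VP4:2 and 49.9, 28.4 and 62.3 CPM in CC4:2. It had 333, 264 and 480 CPM in CC4:4 and 700, 407 and 572 CPM in Control. All CC4:2 samples lay below all others, and VP4:2 overlapped both CC4:4 and Control. Cxcl13 was higher in VP4:2 than in CC4:2 (3.15 ± 0.33, adjusted p = 0.00038), lower in CC4:2 than in Control (-3.58 ± 0.34, adjusted p = 4.5e-05) and not called in VP4:2 against Control (-0.43 ± 0.31, adjusted p = 0.35). Its receptor Cxcr5 (ENSRNOG00000012430) had 2.14, 2.36 and 2.65 CPM in VP4:2 and 2.54, 3.72 and 2.87 CPM in CC4:2. It had 6.16, 11.8 and 3.01 CPM in CC4:4 and 2.76, 3.67 and 5.01 CPM in Control. Its 1 call, in CC4:2 against CC4:4 (-1.2 ± 0.43, adjusted p = 0.045), was lost when CC4:2 replicate 1 (0.12), 2 (0.063) or 3 (0.11) or CC4:4 replicate 1 (0.07) or 2 (0.27) was left out. Only 5 of 16 alternatives kept this call. B and plasma cell markers stood at a summed 324 to 1180 CPM in VP4:2, 12.3 to 189 CPM in CC4:2, 2500 to 5620 CPM in CC4:4 and 758 to 6930 CPM in Control. Jchain alone made up most of that sum in each sample. All 6 markers were lower in CC4:2 than in Control (23.1% of all genes tested). In VP4:2, 1 was higher than in CC4:2 (5.29% of all genes) and 5 were lower than in Control (9.42% of all genes). None was at 0 in any group, and their part was not tested.

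Ccl19 (ENSRNOG00000015668), made by stromal cells of lymphoid tissue and by mature dendritic cells, had 0.164, 0.107 and 0.162 CPM in VP4:2 and 0.318, 0.338 and 0.0522 CPM in CC4:2. It had 20.1, 132 and 1.03 CPM in CC4:4 and 1.57, 8.04 and 2.91 CPM in Control. The CC4:4 samples were far apart, and all VP4:2 and CC4:2 samples lay below all others. Ccl19 was lower in CC4:2 than in CC4:4 (-7.72 ± 1.69, adjusted p = 0.0067), though not by limma-voom (adjusted p = 0.23), and was not called in CC4:2 against Control (-4.1 ± 1.62, adjusted p = 0.067). That difference was called as lower by DESeq2 (adjusted p = 0.0054), with only the groups compared (adjusted p = 0.015), with the replicate block (adjusted p = 0.039) and with platform as a covariate (adjusted p = 0.046). Ccl21, which lymphatic endothelium releases, was highest in CC4:4 replicate 1 at 108 CPM, ran from 9.03 to 39.4 CPM elsewhere, and was not called by edgeR in any of the 5 comparisons. It was at -1.63 ± 0.62, adjusted p = 0.062 in CC4:2 against CC4:4, and was called lower by DESeq2, with platform as a covariate, with the replicate block and without CC4:2 replicate 2 or CC4:4 replicate 3. Lymphatic endothelial markers summed to 36.9 to 54.1 CPM in VP4:2, 44.1 to 61.2 CPM in CC4:2, 117 to 152 CPM in CC4:4 and 94 to 190 CPM in Control. Most of that sum in each sample was Pdpn, which fibroblasts also express. Of the 4 markers, Pdpn was lower in CC4:2 than in Control (-1.91 ± 0.27, adjusted p = 0.00038), Lyve1 was higher (1.57 ± 0.31, adjusted p = 0.0022) and the other 2 were not called, so the sum does not speak for the list. Their part in the level of Ccl21 was not tested. Ccr7 (ENSRNOG00000010665) had 6.3, 8.43 and 5.84 CPM in VP4:2 and 2.49, 1.97 and 3.5 CPM in CC4:2. It had 25.9, 28.1 and 28 CPM in CC4:4 and 21, 23.5 and 43.5 CPM in Control. Ccr7 was lower in CC4:2 than in Control (-3.46 ± 0.31, adjusted p = 3.6e-05) and lower in VP4:2 than in Control (-2.09 ± 0.29, adjusted p = 0.0026). Its rise in VP4:2 over CC4:2 (1.37 ± 0.3, adjusted p = 0.022) was lost when VP4:2 replicate 1 (0.052) or 2 (0.073) or CC4:2 replicate 1 (0.074) or 2 (0.091) was left out.

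**Figure D4:**
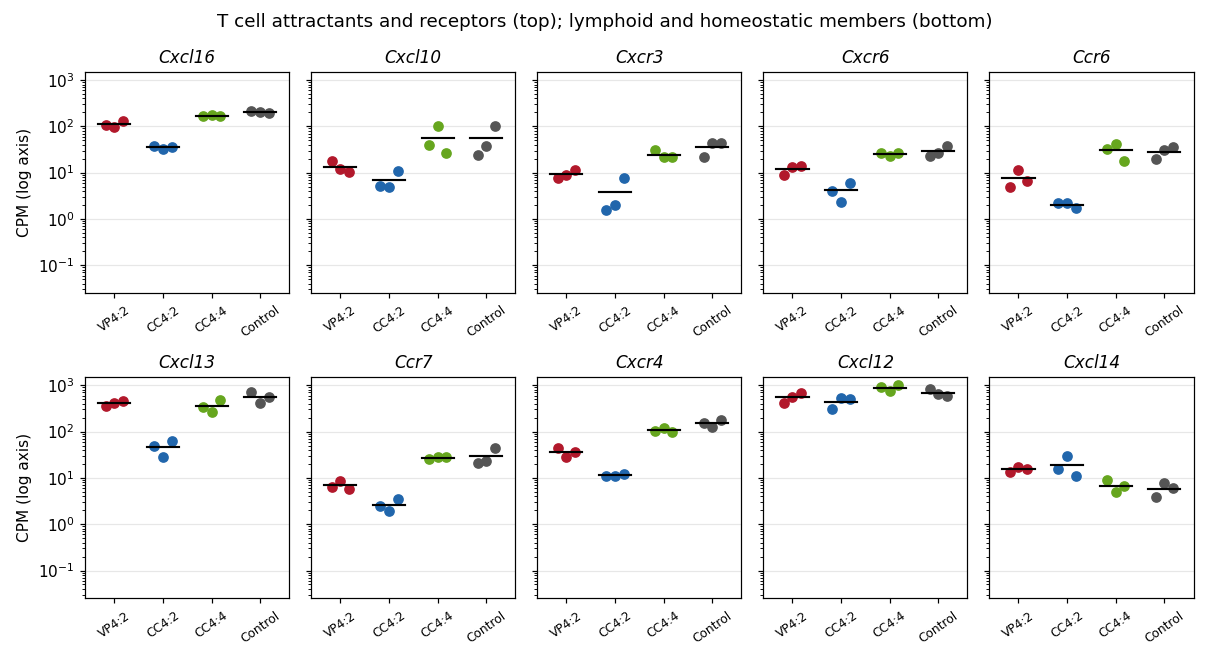
Level of 10 members in each sample (points; CPM, log axis) by group, with the group mean as a line. Cxcl16, Cxcl13 and Cxcr4 are higher in all VP4:2 than in all CC4:2 samples, Cxcl12 stays within 304 to 1000 CPM in every sample, and Cxcl14 is higher in all VP4:2 and CC4:2 samples than in all CC4:4 and Control samples.

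Cxcl12, a homeostatic ligand of stromal cells, and its receptor Cxcr4 differed in their calls. Cxcl12 (ENSRNOG00000013589) had 419, 556 and 675 CPM in VP4:2 and 304, 525 and 508 CPM in CC4:2. It had 926, 743 and 1000 CPM in CC4:4 and 836, 646 and 601 CPM in Control. Cxcl12 was lower in CC4:2 than in CC4:4 (-1 ± 0.25, adjusted p = 0.0097), not in the NovaSeq samples alone (adjusted p = 0.073), and was not called in CC4:2 against Control (-0.64 ± 0.25, adjusted p = 0.058; DESeq2, adjusted p = 0.029), in VP4:2 against CC4:2 (0.3 ± 0.25, adjusted p = 0.51) or in VP4:2 against Control (-0.34 ± 0.25, adjusted p = 0.37). Cxcr4 (ENSRNOG00000003866), which most leukocytes carry, had 43.7, 28.6 and 36.2 CPM in VP4:2 and 10.9, 11.2 and 12.1 CPM in CC4:2. It had 104, 122 and 97.4 CPM in CC4:4 and 154, 123 and 182 CPM in Control. The CC4:2 samples lay within 10.9 to 12.1 CPM, and VP4:2 lay between them and the other groups without overlap. Cxcr4 was higher in VP4:2 than in CC4:2 (1.67 ± 0.18, adjusted p = 0.00043), lower in CC4:2 than in Control (-3.75 ± 0.2, adjusted p = 4e-06) and lower in VP4:2 than in Control (-2.08 ± 0.18, adjusted p = 0.00076).

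Cxcl14 (ENSRNOG00000011984), a constitutive ligand of epithelia and stroma, had 13.1, 17.4 and 15.5 CPM in VP4:2 and 15.8, 29.8 and 11 CPM in CC4:2. It had 8.92, 4.88 and 6.57 CPM in CC4:4 and 3.82, 7.57 and 6.06 CPM in Control. Every VP4:2 and CC4:2 sample lay above every CC4:4 and Control sample. Cxcl14 was higher in CC4:2 than in Control (1.7 ± 0.38, adjusted p = 0.0046) and than in CC4:4 (1.47 ± 0.37, adjusted p = 0.01), the second not called without CC4:4 replicate 2 (adjusted p = 0.05). Cxcl14 was higher in VP4:2 than in Control (1.4 ± 0.38, adjusted p = 0.027), lost when VP4:2 replicate 1 (0.056), 2 (0.086) or 3 (0.066) or Control replicate 1 (0.055) or 3 (0.08) was left out, and was not called between VP4:2 and CC4:2 (-0.3 ± 0.36, adjusted p = 0.67).

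Atypical receptors bind chemokines without coupling to G proteins, and several of them remove the chemokines they bind. Ackr3 (ENSRNOG00000019622), the scavenger of Cxcl12, had 41.4, 47.1 and 67.8 CPM in VP4:2 and 72.9, 101 and 102 CPM in CC4:2. It had 70.2, 57.3 and 73.7 CPM in CC4:4 and 71.8, 83.6 and 60.8 CPM in Control. It was the 1 member lower in VP4:2 than in CC4:2 (-0.82 ± 0.21, adjusted p = 0.041), without overlap. That call was lost with the replicate block (adjusted p = 0.054), with total count scaling (adjusted p = 0.062) and when VP4:2 replicate 1 (0.16) or 2 (0.12) or CC4:2 replicate 2 (0.13) or 3 (0.1) was left out. Ackr1, which venular endothelium carries, ran from 16.1 to 32.5 CPM, Ackr2, a scavenger of inflammatory CC ligands, from 0.877 to 4.23 CPM, and Ackr4, which takes up Ccl19 and Ccl21, from 5.93 to 12.4 CPM, and these 3 were not called in any of the 5 comparisons. Of the remaining ligands, Ccl25 had 0 counts in all 12 samples, Ccl26, an eotaxin, had 1 count, Ccl28 had 7 and Cxcl17 had 55 over all samples, and these 4 were the members not tested. Cxcl17 had 0.11, 0.107 and 0.108 CPM in VP4:2 and 0.106, 0 and 0.418 CPM in CC4:2. It had 0.176, 0.339 and 0.274 CPM in CC4:4 and 0.337, 0.703 and 0.969 CPM in Control.

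Between CC4:4 and Control no member was called by edgeR, DESeq2 or limma-voom (0 each), and 4 members had an unadjusted p under 0.05 in edgeR, 1 higher and 3 lower. Over all genes, edgeR called 0 and had 815 at an unadjusted p under 0.05, DESeq2 called 5 higher and 5 lower, and limma-voom called 0. Without Control replicate 1, edgeR called 165 genes higher and 181 lower, with 0 members among them. Cxcl2 was at -1.07 ± 0.43, adjusted p = 0.95, Cxcr4 at -0.5 ± 0.18, adjusted p = 0.95, Ccl11 at -2.29 ± 0.83, adjusted p = 0.95 and Ccl19 at 3.62 ± 1.3, adjusted p = 0.95.

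In the NovaSeq samples alone, with 2 samples a group, 27 members were lower in CC4:2 than in Control, among 1659 genes lower over the whole table. Lower in CC4:2 than in CC4:4 were 29 members, among 1819 genes, and higher in VP4:2 than in CC4:2 were 12 members, among 217 genes. Between VP4:2 and Control, 3 were lower (Cxcl2, Cxcl3 and Cxcr4) and 0 were higher there, where the edgeR test called 25 genes lower and 3 higher over the whole table. The DNBSEQ samples, 1 per group, allow no test. In them all 31 members called in CC4:2 against Control, all 34 in CC4:2 against CC4:4, all 18 in VP4:2 against CC4:2 and all 19 in VP4:2 against Control had the sign of the whole fit, of which these samples are a part.

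The other genes of the pathway gave the following counts, set beside shares of all genes tested. No list was tested as a set. Of 15 tested inducers and brakes of chemokine transcription, 4 were higher in VP4:2 than in CC4:2 (5.29% of all genes tested). These were the cytokine genes Il1a, Il1b, Il6 and Tnf. In CC4:2 against Control 13 of the 15 were lower (23.1% of all genes) and 0 higher (20.2% of all genes). In VP4:2 against Control 12 were lower (9.42% of all genes) and 0 higher (9.25% of all genes). Il1b, which drives chemokine genes through NF-kappaB, had 15.2, 12 and 15.8 CPM in VP4:2 and 3.34, 3.21 and 5.06 CPM in CC4:2. It had 192, 303 and 127 CPM in CC4:4 and 253, 202 and 484 CPM in Control. Il1b was higher in VP4:2 than in CC4:2 (1.89 ± 0.39, adjusted p = 0.016) and lower in VP4:2 than in Control (-4.44 ± 0.42, adjusted p = 0.00076). Tnf was at 1.68 ± 0.154 CPM in VP4:2 and 0.501 ± 0.117 CPM in CC4:2 (SD, n = 3 each; 1.73 ± 0.29, adjusted p = 0.0045), against 7.09 ± 1.76 CPM in Control. Nfkbiz, a cofactor that NF-kappaB induces, was lower in CC4:2 than in Control (-3.36 ± 0.3, adjusted p = 3.3e-05) and in VP4:2 than in Control (-2.48 ± 0.28, adjusted p = 0.0012). The same held for Zc3h12a, a nuclease that degrades chemokine mRNAs (-2.82 ± 0.24, adjusted p = 2.7e-05 in CC4:2 and -2.24 ± 0.23, adjusted p = 0.00076 in VP4:2). Neither was called in VP4:2 against CC4:2 (0.88 ± 0.28, adjusted p = 0.092 and 0.57 ± 0.23, adjusted p = 0.17).

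Of 26 genes that carry the signal of these receptors in leukocytes or limit it, 14 were higher in VP4:2 than in CC4:2 (5.29% of all genes tested). In CC4:2, 19 were lower than in Control (23.1% of all genes), and in VP4:2, 11 were (9.42% of all genes). There were 0 calls the other way in these 3 comparisons. The guanine exchange factor gene Vav1 was higher in VP4:2 than in CC4:2 (1.49 ± 0.15, adjusted p = 0.00029) and lower in CC4:2 than in Control (-2.58 ± 0.15, adjusted p = 5e-06), and so were the haematopoietic GTPase gene Rac2 (1.66 ± 0.22, adjusted p = 0.0013 and -2.74 ± 0.23, adjusted p = 2.5e-05) and the myeloid kinase gene Fgr (1.54 ± 0.21, adjusted p = 0.0013 and -2.35 ± 0.21, adjusted p = 3.4e-05). These 3 genes are expressed mainly in blood cells. Summed neutrophil, macrophage, T and NK cell and B and plasma cell markers moved with them as given above. Other leukocyte lists did not. Mast cell markers summed to 56.3 to 81.6 CPM in VP4:2, 52.1 to 84.6 CPM in CC4:2 and 21 to 50 CPM in Control. Dendritic cell markers summed to 26.6 to 33.4, 25.3 to 34 and 29.9 to 44.5 CPM in the same order. The part of cell number in these differences was not tested. Of 11 tested attractants and receptors that the name rule left out, 7 were lower in CC4:2 than in Control (23.1% of all genes). Dpp4 was the 1 higher there (20.2% of all genes). In VP4:2, C3ar1 and Pf4 were higher than in CC4:2 (5.29% of all genes). The platelet and macrophage chemokine gene Pf4 was lower in CC4:2 than in Control (-2.98 ± 0.25, adjusted p = 2.6e-05) and higher in VP4:2 than in CC4:2 (1.01 ± 0.24, adjusted p = 0.03). The atypical receptor gene Ccrl2 (-2.8 ± 0.53, adjusted p = 0.0019), the chemerin receptor gene Cmklr1 (-0.92 ± 0.18, adjusted p = 0.0023) and Mif, which encodes a cytokine that binds Cxcr2 and Cxcr4 (-1.13 ± 0.15, adjusted p = 0.00029), were lower in CC4:2 than in Control and not called in VP4:2 against CC4:2 (adjusted p = 0.46, 0.25 and 0.11).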

How the data were processed

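The authors deposited expected counts (estimated counts per gene, with no normalization recorded), as 12 identical copies of 1 table, of which 1 was read. Per the submitters' processing notes, HISAT2, StringTie, RSEM and DESeq2 were used, with roles, versions, genome build and annotation not given in the sources used here. Between 9.44% and 11.1% of a sample's deposited values were not whole, and all were rounded. Of the members, 46 were whole in all samples and 9 were not in at least 1. Among these, Ccr9 and Cxcl16 were not whole in 12 samples, Ccl9 in 6, Ackr2, Ccl24 and Ccr2 in 4, Cxcr2 in 3 and Ackr3 in 2. Gene names are those of the deposited table, and none of the 55 members' Ensembl identifiers was found in the reference table (0), so promoters were matched by symbol.

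All 12 samples entered 1 fit of edgeR 4.0.16 (limma 3.58.1, R 4.3.3; TMM, filterByExpr, robust quasi-likelihood, 8 residual degrees of freedom, Benjamini-Hochberg over 15712 genes). The SE of a log2 fold change came from the F statistic. On simulated data with known changes, false calls were more frequent than the threshold allows in all comparisons but VP4:2 against CC4:2. The excess was largest in CC4:2 against CC4:4. Most of the smaller changes were missed. DESeq2 1.42.0 and limma-voom were alternatives. The members, lists and classes were chosen with earlier results of these data known. Values in every sample are given, per class, for the member of highest mean CPM and for members called in at least 1 comparison with a mean of at least 1 CPM, and of more than 5 such members for the 5 of smallest p in CC4:2 against Control. From each pathway list the 4 of smallest p in that comparison are named. Of the genes these rules name, 1 member and 1 pathway gene are not reported here, though they stay in the fit and in the counts. Tests of other members, and the marker genes Mmp9, Ncf1, S100a9, Epx, Alox15, Il5ra, Prg2, Pdpn and Lyve1, were singled out after their values were seen. Replicates of a group differed by more than sampling noise (chi-square per degree of freedom 47.3 to 318). Replicate numbers come from the titles. Deviations of samples with the same number correlated at 0.12, 0.28 and 0.43 in VP4:2 against CC4:2, so the numbers may pair the samples there. For replicate 3, a shared platform and a pairing cannot be told apart. Changes are printed from the fit without the block, and the block is given beside results it changes. In the other comparisons at least 1 of 3 correlations was below 0.1, although replicate 3 of every group was read on the DNBSEQ-T7, so that the numbers also mark the platform.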

Additional observations from a re-analysis of the deposited data

How the results depend on the processing

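No called member among those named by the rule changed direction under any of the alternatives, and rounding changed no call. The direction of the called members Ccl27, Ccr4 and Cxcr1, which the rule does not name, was not followed in this way. Calls of the members named by the rule were kept under every alternative for 25 of 29 in CC4:2 against Control. The same held for 24 of 32 in CC4:2 against CC4:4, 9 of 18 in VP4:2 against CC4:2 and 3 of 18 in VP4:2 against Control. In CC4:2 against Control, leaving out 1 library at a time gave 26 to 33 members lower and 1 to 3 higher, and the NovaSeq samples alone gave 1 higher. With only the groups compared, 25 were lower there. In CC4:2 against CC4:4 it gave 29 to 34 lower and 0 to 2 higher. Members higher there numbered 1 with no filter, with limma-voom, with only the groups compared, in the NovaSeq samples alone, with platform as a covariate and with the replicate block, against 2 in the report. In VP4:2 against CC4:2 it gave 12 to 16 higher and 0 to 1 lower. There limma-voom gave 11 higher, and only the groups compared, the NovaSeq samples alone, the replicate block and total count scaling each gave 0 lower. The replicate block gave 15 higher there against 17, losing Cx3cr1 and Cxcl3. In VP4:2 against Control leaving out 1 library gave 9 to 22 lower and 0 to 2 higher. Members higher were 4 with DESeq2, 4 with limma-voom and 4 with total count scaling, 1 with only the groups compared and 0 in the NovaSeq samples alone, which gave 3 lower, with 2 samples a group. In CC4:4 against Control every alternative gave 0 members in both directions. Outside the comparison of VP4:2 with CC4:2 the deviations do not show that the shared numbers pair the stumps, though number 3 marks the platform in every group. The block gave 31 lower in CC4:2 against Control, adding Ccl19 and Cxcl9, and 2 higher. It gave 34 lower in CC4:2 against CC4:4, adding Ccl21, Cxcl9 and Xcr1 and losing Cxcr5, while Ccl27 was no longer called higher. Against Control, VP4:2 had 16 lower under the block, losing Cxcr1, and 2 higher, with Ccl9 in place of Ccr2. Total count scaling was added after seeing the data. With 0 to 7 counts per sample for Cxcl2, Cxcl3 and Cxcl6 in CC4:2, depth limits how well the size of their changes is known.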
